A study of Drosophila melanogaster with 3 samples.

Results

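Pvf1, Pvf2 and Pvf3 are the Drosophila ligands related to platelet-derived growth factor (PDGF) and vascular endothelial growth factor (VEGF), and Pvr is their receptor. These 4 genes, of 13945 protein-coding genes on the 6 chromosome arms used here, were selected on the peaks themselves: Pvf3 was known to hold one of the 20 strongest peaks, and the rest of the pathway was added by name. Their peaks are those whose summit, the position of highest signal in a peak, lay inside a gene or within 5 kb of it. By this rule 32 of the 10650 reproducible summits belonged to the 4 genes, and everything below describes them without a test of whether they hold more peaks than other genes.

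The samples, 1 group of 3 biological replicates, were whole embryos collected at 0 to 18 h, male and female pooled. All came from a single transgenic line that makes the protein CG11504 with green fluorescent protein (GFP) fused to its C-terminal end, and nothing in the labels gives an untagged or otherwise altered group for comparison. Chromatin was sonicated to fragments of 200 to 800 bp, the fusion protein was precipitated through its GFP with its bound DNA, and that DNA was sequenced (ChIP-seq). The authors deposited 1 peak list of 30000 peaks for each replicate, 1 for the replicates pooled, and a list of 10650 peaks thresholded on the irreproducible discovery rate (IDR), which measures how far peak ranks repeat between replicates.

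No library from flies without the tag was analysed here, so sites that any GFP precipitation would pull down cannot be told apart from sites of CG11504. Whole embryos were sheared together, so strong binding in a few cells and weak binding in many cannot be told apart either. The lists hold no expression values, and the depth of the libraries is unknown. Each peak carries the authors' own signal value, whose scale the sources leave unstated, and peaks are therefore compared by rank within a list, rank 1 being the strongest.

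Pvr is a receptor tyrosine kinase: binding of a ligand outside the cell brings receptor chains together, their kinase domains phosphorylate each other, and the signal passes on through Ras and MAP kinase, PI3 kinase and Rac. In the fly embryo Pvr is made by hemocytes, the blood cells, which need it to survive and to spread through the body, and Pvf2 and Pvf3 are made in tissues along their routes. Pvf1 is best known as a signal for the border cells that migrate in the ovary.

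The sequences at the 3 strongest Pvf3 summits are printed first, because all 3 held repeated copies of one short word, GCAACAT or its reverse complement ATGTTGC, which is set in capitals. They are 300 bases each of the dm6 reference genome on the strand of the gene, the minus strand, read 5′ to 3′, with the summit at base 150. In the first, chr2L:7133980-7134279, the start site of transcript Pvf3-RE is base 211 and the word begins at bases 29, 46 and 167. In the second, chr2L:7157580-7157879, the start site of Pvf3-RD and Pvf3-RF is base 185 and the word begins at bases 81, 95 and 125. The third, chr2L:7119678-7119977, lies in the first intron of every Pvf3 transcript, and its matches begin at bases 63, 85 and 90, the last overlapping the one before it.
Pvf3, rank 12: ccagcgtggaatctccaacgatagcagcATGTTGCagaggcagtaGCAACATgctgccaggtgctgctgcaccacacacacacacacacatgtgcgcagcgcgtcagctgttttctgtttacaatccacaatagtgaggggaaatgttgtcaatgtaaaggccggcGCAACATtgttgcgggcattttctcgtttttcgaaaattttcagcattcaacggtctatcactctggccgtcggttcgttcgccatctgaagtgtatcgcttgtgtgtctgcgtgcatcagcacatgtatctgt
Pvf3, rank 66: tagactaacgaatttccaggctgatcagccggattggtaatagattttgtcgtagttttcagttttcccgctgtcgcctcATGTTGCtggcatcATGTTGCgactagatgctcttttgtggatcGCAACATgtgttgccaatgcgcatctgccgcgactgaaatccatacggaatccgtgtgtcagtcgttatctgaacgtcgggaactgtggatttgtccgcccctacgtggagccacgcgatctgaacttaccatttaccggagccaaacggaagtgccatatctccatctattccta
Pvf3, rank 957: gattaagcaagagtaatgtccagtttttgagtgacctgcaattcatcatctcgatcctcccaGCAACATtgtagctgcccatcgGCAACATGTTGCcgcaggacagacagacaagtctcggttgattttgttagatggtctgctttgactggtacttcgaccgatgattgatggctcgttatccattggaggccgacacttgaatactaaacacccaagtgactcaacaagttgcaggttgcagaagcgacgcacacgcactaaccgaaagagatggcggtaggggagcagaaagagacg

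For contrast, 101 bases centred on the summit (base 51) are given for the strongest summit without the word inside Pvf1, Pvf2 and Pvr, for the 3 strongest such summits of Pvf3, and for the summit at the start of Pvf2, whose annotated start site is base 54. All are on the strand of their gene, which is the plus strand for Pvf1 and the minus strand for the others, and none holds the word. The windows are chrX:18837149-18837249 for Pvf1, chr2L:7073223-7073323 for the Pvf2 intron, chr2L:7084588-7084688 for the Pvf2 start, chr2L:7135290-7135390, chr2L:7148247-7148347 and chr2L:7123863-7123963 for Pvf3, and chr2L:8232588-8232688 for Pvr. The windows were 26.7% to 31.7% G and C, except those of the Pvf3 summit of rank 1101 (47.5%) and of the Pvf2 start (53.5%).
Pvf1, rank 4442: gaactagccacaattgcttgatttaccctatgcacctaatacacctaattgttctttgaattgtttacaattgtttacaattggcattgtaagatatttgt
Pvf2, rank 4144: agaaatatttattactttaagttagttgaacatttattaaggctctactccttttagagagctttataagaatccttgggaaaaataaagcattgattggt
Pvf2, rank 8708: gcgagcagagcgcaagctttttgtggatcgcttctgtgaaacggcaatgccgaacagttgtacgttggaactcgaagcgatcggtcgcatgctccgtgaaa
Pvf3, rank 1101: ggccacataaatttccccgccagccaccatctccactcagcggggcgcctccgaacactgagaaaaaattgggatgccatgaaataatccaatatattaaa
Pvf3, rank 1164: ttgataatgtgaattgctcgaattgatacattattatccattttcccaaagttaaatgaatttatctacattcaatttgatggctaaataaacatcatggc
Pvf3, rank 1968: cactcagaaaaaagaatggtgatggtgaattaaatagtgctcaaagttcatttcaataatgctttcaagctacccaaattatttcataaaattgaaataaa
Pvr, rank 8995: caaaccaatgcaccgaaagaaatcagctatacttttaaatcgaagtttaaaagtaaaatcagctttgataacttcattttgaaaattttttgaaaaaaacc

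The ligand gene Pvf3 stood far above the other 3 genes in the strength and in the number of its peaks. Its place in strength was set by the selection. Pvf3 had 23 IDR summits, Pvf1 and Pvf2 had 4 each, and Pvr had 1. All 4 genes therefore had an IDR summit, as did 52.6% of protein-coding genes, and 3 of the 4 had at least 4 summits, as did 12.8%. An IDR summit within 500 bp of an annotated start site of their own was present at Pvf2 and Pvf3, 2 of the 4, beside 22.9% of protein-coding genes. The members were chosen with these peaks known, so nothing is read from the counts beyond the values.

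The longer lists gave the same order at the top and the bottom. The pooled list held 67 peaks at Pvf3, 21 at Pvf2, 8 at Pvf1 and 5 at Pvr, and a pooled peak was present at 60.1% of protein-coding genes. Replicates 1, 2 and 3 held 72, 72 and 65 peaks at Pvf3, a mean of 69.7 ± 4.04 (SD, n = 3). They held 22, 20 and 20 at Pvf2, 8, 8 and 10 at Pvf1, and 2, 7 and 6 at Pvr. The replicate counts of Pvf3 and Pvf2 overlapped with those of no other member, while Pvf1 and Pvr lay 1 peak apart at their nearest. All 4 genes had a peak in every replicate, beside 65.2%, 63.8% and 64% of protein-coding genes in replicates 1, 2 and 3.

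**Figure D1:**
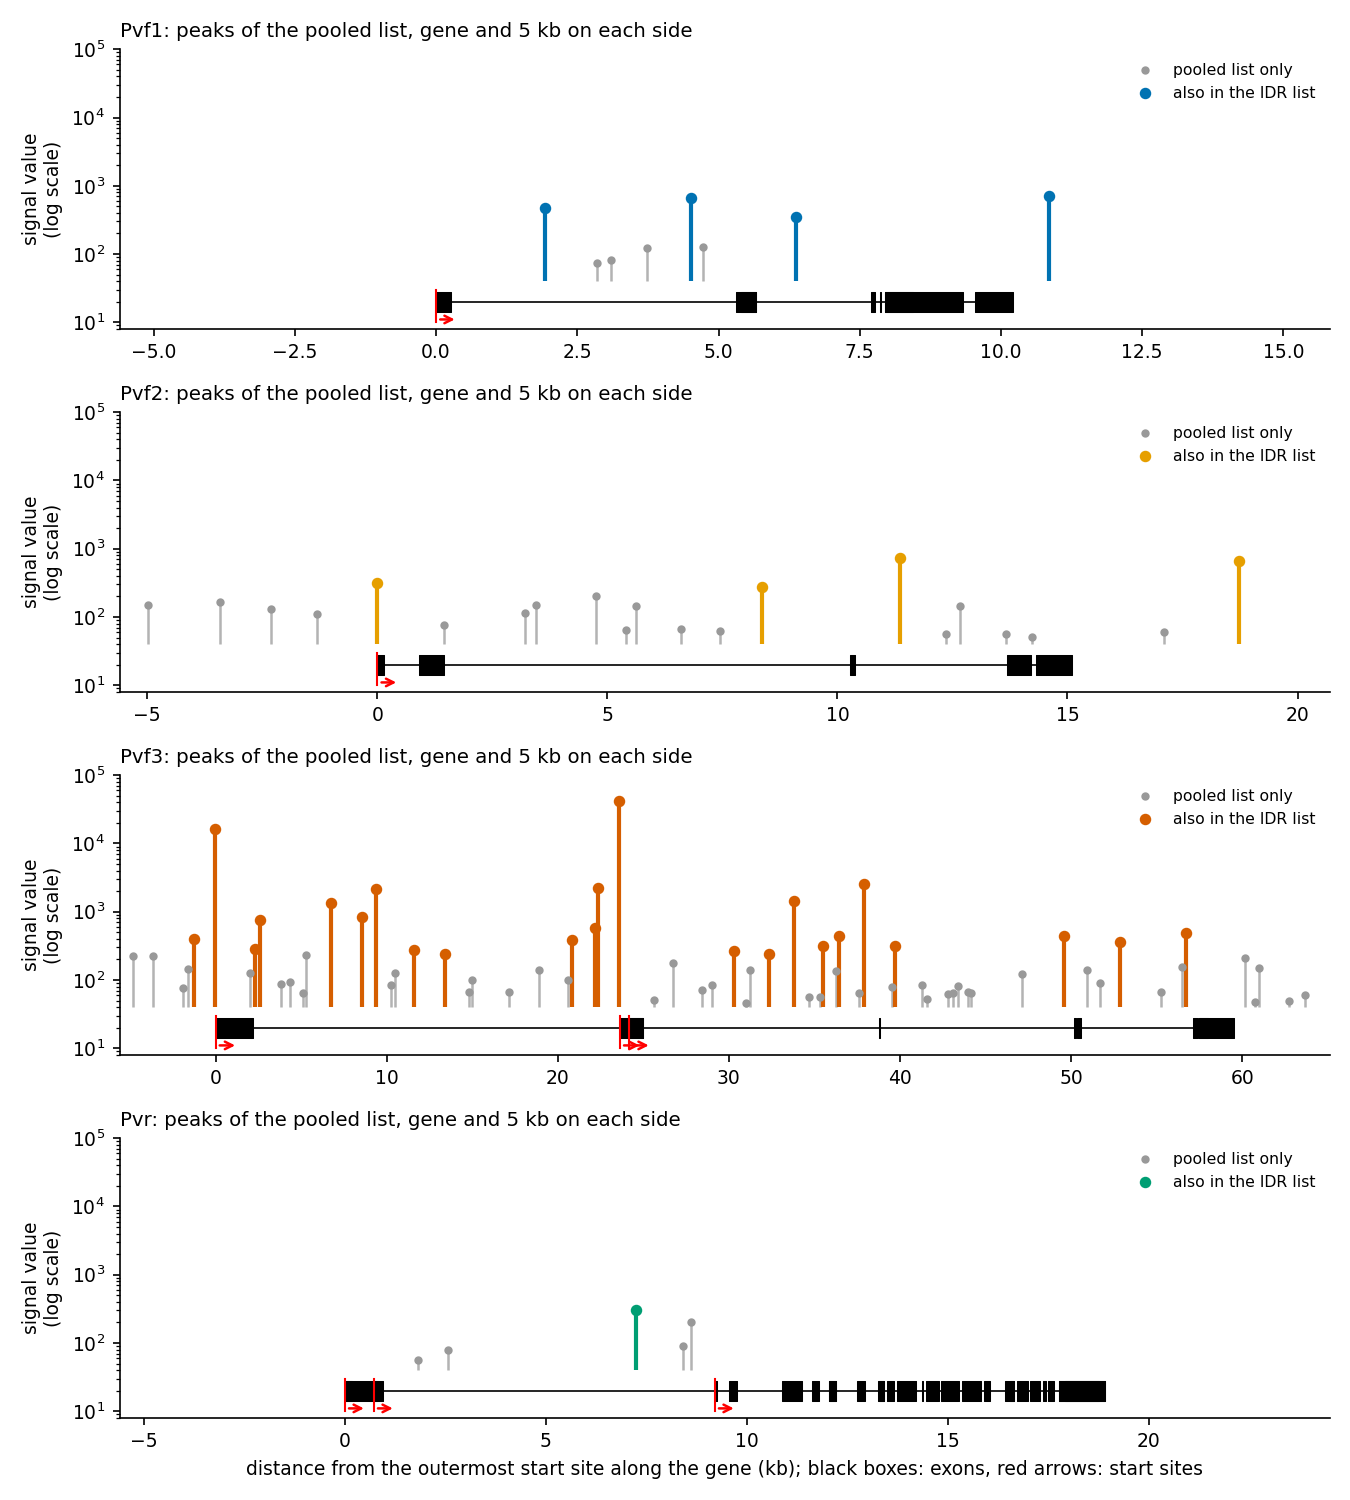
Peaks of the pooled list along Pvf1, Pvf2, Pvf3 and Pvr with 5 kb on each side; the horizontal axis is the distance in kb from the outermost start site, read along the gene, and the vertical axis is the authors' signal value on a log scale. Coloured stems also have an IDR summit, grey stems do not, black boxes are exons of all transcripts together and red arrows are start sites. The tallest stems stand at Pvf3 start sites (signal 41688 and 16426), and no stem at the other 3 genes exceeds 722.

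Pvf1 (FBgn0030964, chrX:18832682-18842901, plus strand, 3 transcripts from 1 start site) had no IDR summit at its own start. Only replicate 2 had a peak there, a weak one with its summit at 18832675 (rank 14503). The first intron of Pvf1 held summits 1923 and 4517 bp downstream of the start, with IDR ranks 6253 and 4442. The weaker of these had ranks 6952, 6298 and 6528 in replicates 1, 2 and 3, and the stronger 4008, 4889 and 5129. Both sites were thus of middling strength and kept their order in every replicate. Another summit, in the second intron, had IDR rank 8030 and replicate ranks 11754, 6683 and 10392. The summit with the best rank, 4215 in the IDR list and 3859, 5267 and 4266 in the replicates, lay 638 bp beyond the end of Pvf1, at an offset of -124 bp from the start of the next gene, htk, so that by position it is a promoter site of htk.

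Pvf2 (FBgn0031888, chr2L:7069536-7084635, minus strand, 1 transcript) had a weak summit almost exactly on its start site, at an offset of -3 bp. That summit had IDR rank 8708 and ranks 8850, 9938 and 9379 in the replicates, in the weaker part of the list each time. The strongest Pvf2 summit, in the third intron, had IDR rank 4144 and replicate ranks 5006, 4255 and 3897. Another, in the second intron, had rank 9495 and replicate ranks 9957, 10659 and 9983. The 4th, with rank 4460 and replicate ranks 3984, 5612 and 4635, lay 3635 bp beyond the end of Pvf2, at an offset of -64 bp from the start of Nuf2, which encodes a kinetochore protein.

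Counted by the gene with the nearest annotated start, only part of these summits went to the members themselves. Of the 32 summits, 20 were nearest to a start site of the gene in whose window they lay: 2 of 4 at Pvf1, 1 of 4 at Pvf2, 16 of 23 at Pvf3 and the 1 at Pvr. The other starts were those of the protein-coding genes htk, Nuf2 and Ugt307A1 and of 3 long non-coding RNA genes, lncRNA:CR44611, lncRNA:CR44612 and lncRNA:CR46196. Distance to a start does not tell which gene a site acts on, which peak lists cannot show.

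Pvf3 (FBgn0085407, chr2L:7098188-7157695, minus strand) has 4 annotated transcripts and 3 start sites, and its 2 strongest peaks sat at starts. The peak of rank 12 (chr2L:7133181-7135953, 2773 bp wide) had its summit 61 bp upstream of the internal start of Pvf3-RE. Its signal was 41688 in the IDR list, where the median peak had 555, and its ranks were 13, 13 and 10 in replicates 1, 2 and 3. The internal start of Pvf3-RA, at 7133527, lies inside the same peak. The peak of rank 66 (chr2L:7157116-7158595, 1480 bp wide) had its summit 35 bp upstream of the outermost start, used by Pvf3-RD and Pvf3-RF, with a signal of 16426 and ranks 71, 70 and 59. In each replicate the internal start thus ranked above the outermost one, and the ranks of the pair did not overlap.

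Away from the starts, most Pvf3 summits lay in long introns. The first intron of Pvf3-RF, 47935 bp long, held 19 of the 23 IDR summits, among them the one at the internal start. The strongest of the others, chr2L:7119438-7120274, had IDR rank 957 and replicate ranks 774, 1231 and 899. It lies 13699 bp downstream of the nearest Pvf3 start. Next came a further summit of the strongest peak region, with its summit at an offset of -1271 bp from the Pvf3-RE start, IDR rank 1101 and replicate ranks 940, 1391 and 1047. The next 3 intron summits were at 7148297 (rank 1164, replicates 1424, 1037 and 1246), 7123913 (rank 1968, replicates 2115, 2073 and 1916) and 7150962 (rank 2170, replicates 2374, 2087 and 2255).

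The remaining 16 Pvf3 summits ranked from 3602 to 10543, and some of them varied widely between replicates. The summit at 7146124, with IDR rank 9584, had ranks 18330, 7307 and 9966, and the one at 7135541, with IDR rank 5063, had 4132, 11060 and 5932. Besides the starts, 2 sites were not classed as intronic: 7144259 (rank 10543) fell in an exon of the antisense gene lncRNA:CR44612, which lies within the first intron of Pvf3-RF, and 7158974 (rank 7205) lay 1279 bp upstream of the gene. Of the 23 summits, 2 were among ranks 1 to 100, 1 among ranks 101 to 1000, 6 among ranks 1001 to 5000 and 14 below that.

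**Figure D2:**
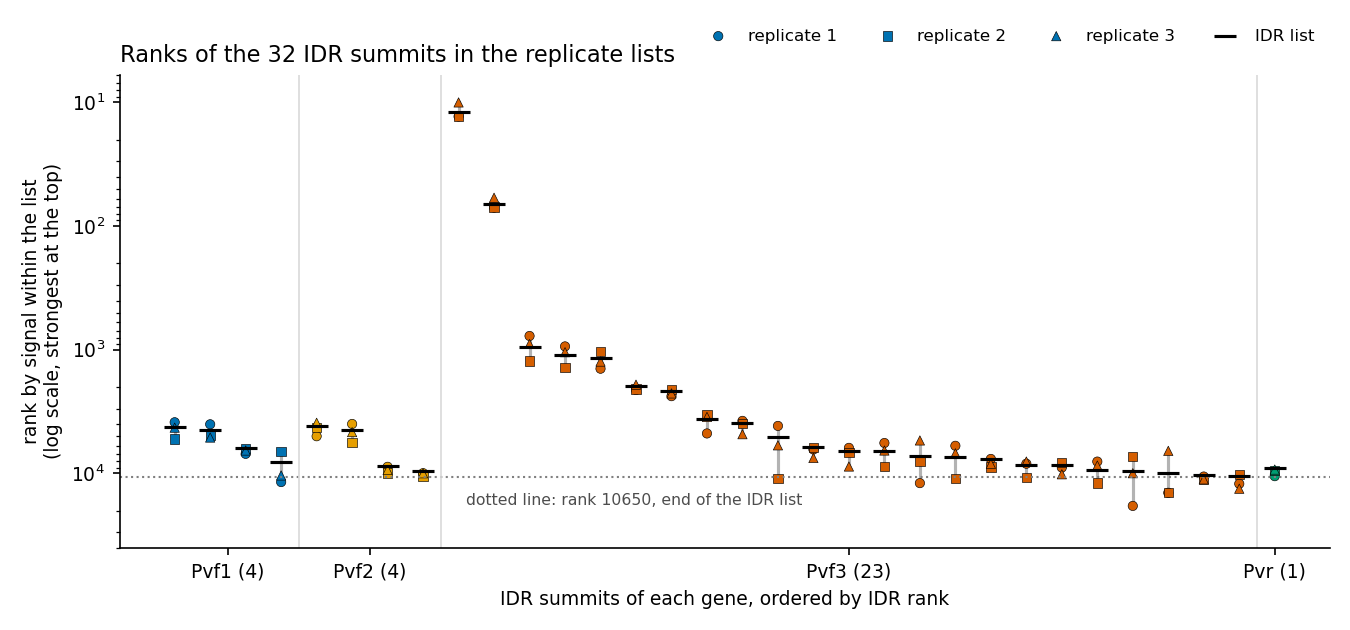
Rank of each of the 32 IDR summits in the IDR list (black dash) and of the matching peak in replicates 1 (circle), 2 (square) and 3 (triangle), grouped by gene and ordered by IDR rank, on a reversed log scale with the strongest at the top. The strongest Pvf3 summits, at ranks 12 and 66, stand apart from the rest, and the replicate ranks of most other summits lie within a factor of 1.5 of each other.

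Pvf3 is a long gene, and length alone gives more room for summits, so its count was set beside those of genes with a window as long. With its flanks it spans 69.5 kb and held 0.331 IDR summits per kb, where the 6 arms held 0.0797 per kb. The values were 0.198 at Pvf1, 0.159 at Pvf2 and 0.0346 at Pvr, and the median gene window held 0.0478. At Pvr alone the density, which rests on 1 summit, was under that median, and 51.4% of protein-coding genes had at least its density. Of 233 protein-coding genes with a window at least as long as that of Pvf3, itself included, the median had 7 summits, 18 had 23 or more and 4 had its density or a higher one. Counting only IDR summits matched among the 10650 strongest peaks of all 3 replicates, Pvf3 had 14 summits in place of 23. Leaving replicate 3 out of that requirement also gave 14, leaving out replicate 1 gave 16 and leaving out replicate 2 gave 18.

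By the rank of its strongest peak, the measure used to select it, Pvf3 was among the first genes of the genome. That place was set by the selection and is no finding. Counting Pvf3, 18 genes (0.129%) had a peak as strong or stronger in the gene or within 5 kb. For Pvf2 this number was 5328 genes (38.2%), for Pvf1 it was 5371 (38.5%) and for Pvr it was 7001 (50.2%). The best replicate ranks were 12 ± 1.73 for Pvf3, 4045 ± 187 for Pvf2, 4338 ± 519 for Pvf1 and 7397 ± 2904 for Pvr (mean ± SD, n = 3). Except at Pvf3, the best rank came from different peaks in different replicates. At Pvf2 it was the site at the Nuf2 start in replicate 1 and the third-intron site in replicates 2 and 3. At Pvf1 it was the htk site in replicates 1 and 3 and a first-intron site in replicate 2. The SDs of Pvf1, Pvf2 and Pvr are therefore not the spread of any single site. In the order of the levels, Pvf3 was far from its neighbour, while the replicate ranks of Pvf2 (3984, 4255 and 3897) and Pvf1 (3859, 4889 and 4266) overlapped. Pvr came last within each replicate, with ranks 10531, 6863 and 4797, the last of which lay inside the range of Pvf1.

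**Figure D3:**
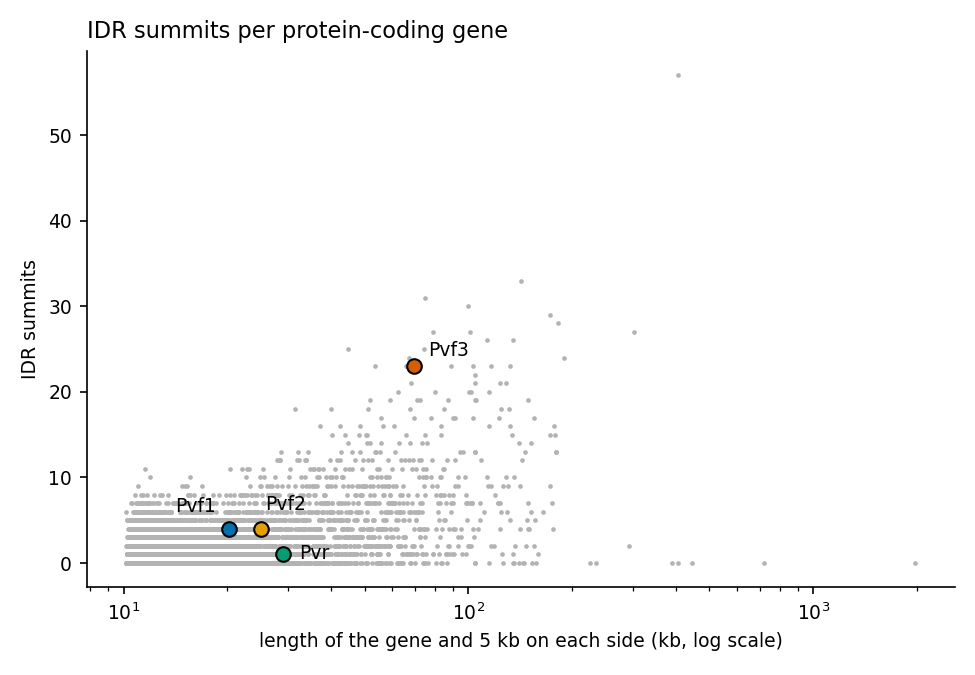
IDR summits in the gene or within 5 kb against the length of that window in kb (log scale) for all 13945 protein-coding genes (grey points), with Pvf1, Pvf2, Pvf3 and Pvr coloured. Pvf3 lies near the upper edge of genes of its length with 23 summits, and Pvf1 (4), Pvf2 (4) and Pvr (1) lie within the mass of genes.

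The receptor gene Pvr (FBgn0032006, chr2L:8220980-8239878, minus strand, 13 transcripts from 3 start sites) had the lowest-ranked best site of the 4 genes. Its only IDR summit, in the first intron of 12 transcripts at an offset of -1961 bp from the internal start of Pvr-RL, had IDR rank 8995. It ranked 10531, 9510 and 9307 in replicates 1, 2 and 3. None of the 3 start sites had an IDR summit within 500 bp. A stronger site was seen in some replicates only: replicate 2 had a peak with its summit at 8229958 (rank 6863) and replicate 3 at 8229917 (rank 4797), downstream of the internal start, but replicate 1, the pooled list and the IDR list had no summit there. The strongest peak at Pvr in replicates 2 and 3 was thus not the one in the IDR list, and the spread of its best rank over the replicates was the widest of the 4 genes.

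The limit of 5 kb kept stronger sites out at 3 of the 4 genes. The farthest summits inside it lay 638 bp from Pvf1, 3635 bp from Pvf2 and 1279 bp from Pvf3, and Pvr had none outside the gene. The nearest IDR summits beyond it were at 5887 bp from Pvf1 (rank 1066), 5638 bp from Pvf2 (rank 3749), 7092 bp from Pvf3 (rank 4610) and 7964 bp from Pvr (rank 444). Those outside Pvf1, Pvf2 and Pvr ranked higher than any inside. With 10 kb on each side the numbers of summits were 5 at Pvf1, 6 at Pvf2, 24 at Pvf3 and 3 at Pvr.

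Every site of the 4 genes in the IDR list was found again in each replicate, but not always among its strongest peaks. A summit of each whole replicate list lay within 100 bp of all 32 member summits, and this held for 91.9% of all IDR summits. The 96 matches were a median of 10.5 bp and at most 93 bp from the IDR summit. Against the 10650 strongest peaks of each replicate, 21 of 32 were matched in all 3, beside 72.2% of all IDR summits: 3 of 4 at Pvf1, 3 of 4 at Pvf2, 14 of 23 at Pvf3 and the 1 at Pvr. The highest of the 3 replicate ranks of a member summit was 1.32 times the lowest (median), and the ratio ran from 1.06 to 2.68. It was under 1.5 for 12 of the 13 member summits of IDR rank 5000 or better and for 12 of the other 19. The ratio was not computed over all IDR summits, so it is not known whether this spread is usual for the map. The IDR list was derived from these same replicates, so the matches describe it and are no separate check.

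By annotation the member summits were mostly intronic. Of the 32, 25 lay in introns (78.1%, beside 43.4% of all IDR summits), 5 within 500 bp of a start site of any gene (15.6%, beside 32.7%), 1 in a non-coding exon and 1 between genes. No member summit fell in a coding exon or an untranslated region outside the promoter windows. Of the 5 promoter summits, 3 were at members, the 2 at Pvf3 and the 1 at Pvf2, and the others at htk and Nuf2. Pvf3 supplied 19 of the 25 intronic summits.

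The word GCAACAT, printed in capitals above, was first noticed in the Pvf3 sequences, and this spelling and the window of 300 bases were kept after a number of spellings and a pair of windows had been compared over the ranked IDR list. It was counted on both strands, overlapping matches included. It was present at 85% of the 20 strongest IDR summits (17 of 20, 95% exact binomial interval 62.1 to 96.8) and at 86.2% of ranks 21 to 100 (69 of 80, 76.7 to 92.9). The share was 31.5% for ranks 101 to 500, 15.4% for ranks 501 to 1000, 10.3% for ranks 1001 to 5000 and 9.13% for the rest. Windows of the same length at the start sites of protein-coding genes held it in 4.97% of cases. In the 100 strongest peaks of replicates 1, 2 and 3 the shares were 85%, 82% and 87%. Since the word was chosen with these shares in view, and the Pvf3 peaks that prompted it are among those counted, the shares describe the map and are no test of the word. The intervals cover counting error over peaks only and make no allowance for that choice.

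Of the 32 member summits, 5 had the word, all at Pvf3, beside 1216 of all 10650 IDR summits (11.4%). Pvf1, Pvf2 and Pvr had only 4, 4 and 1 summits, so their lack of it is not read as a difference from Pvf3. The 5 were the summits of ranks 12, 66 and 957 with 3 matches each, the one of rank 5063 with 2 and the one of rank 3602 with 1. The other 18 summits of Pvf3 had none, among them those of ranks 1101, 1164, 1968 and 2170. Over the whole IDR list, the median rank was 5450 for the 9434 summits with no match, 5221 for 751 with 1, 2498 for 243 with 2 and 1152 for 222 with 3 or more. The word also occurred away from summits. Pvf3 and its flanks held 31 matches, of which 12 (38.7%) lay within 150 bp of an IDR summit, and Pvf1, Pvf2 and Pvr held 5, 5 and 12, none of them near one. On the 6 arms 2005 of 27410 matches (7.31%) lay that near to a summit. Most copies of the word, at Pvf3 too, therefore lay farther than 150 bp from any IDR summit. Pvf3 also held more IDR summits per kb (0.331, beside 0.0797 on the arms), so more of its bases lie near one. The word was first noticed at Pvf3 as well, so its higher share there is not read as a result.

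**Figure D4:**
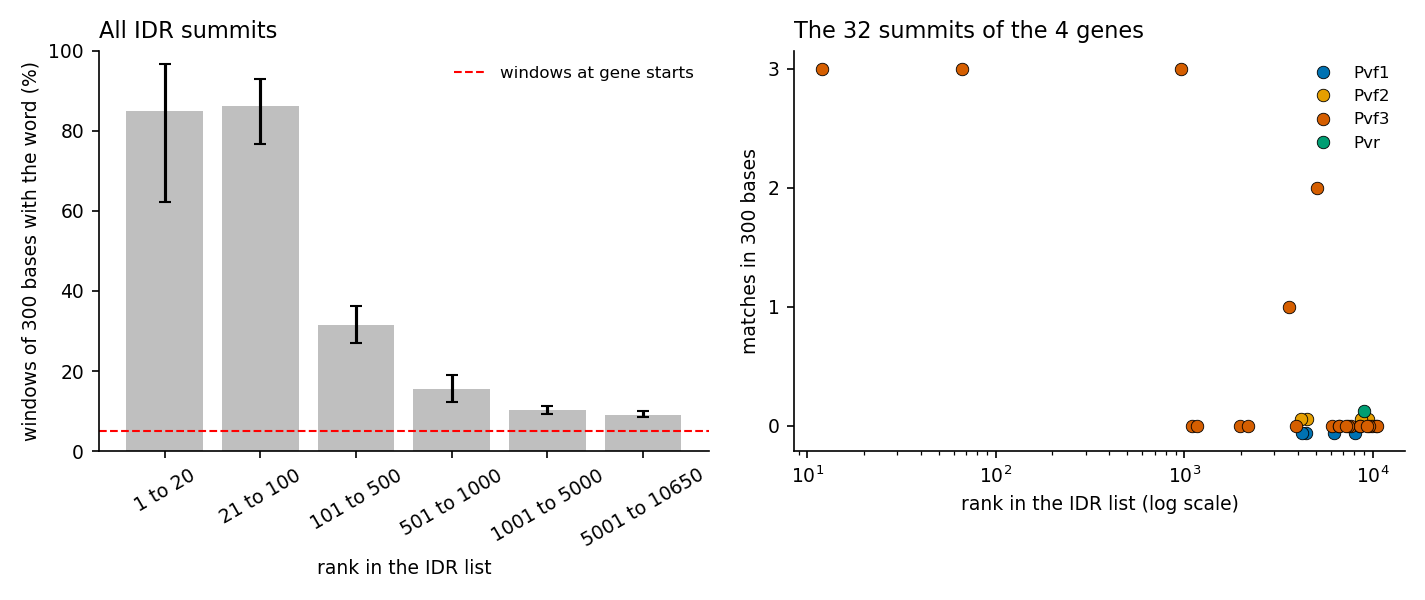
Left, share of windows of 300 bases around IDR summits that hold the word found at Pvf3 or its reverse complement, by rank in the IDR list, with 95% exact binomial intervals as error bars and the share at gene starts (4.97%) as a dashed line. Right, number of matches at each of the 32 member summits against IDR rank (log scale, points at 0 set slightly apart to show each gene). The share is 85% and 86.2% in the first bins and 9.13% in the last, and the 5 summits with a match are all at Pvf3.

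The base composition of the member summits varied widely, from 13.9% to 55.4% G and C, in a map that ran from 8.91% to 71.3%. Within 50 bp of the summit 36.7% of bases were G or C on average, beside 33.3% for all IDR summits. The lowest value, 13.9%, was at the Pvf3 summit of rank 2170, and the highest, 55.4%, at the Pvf3 summit of rank 10391. The Pvf3 summits with the word in their 300 bases, of ranks 12, 66, 957, 3602 and 5063, had 45.5%, 50.5%, 47.5%, 29.7% and 44.6%. At rank 957 no copy lay within 50 bp of the summit. Of the strongest Pvf3 summits without the word, that of rank 1101 had 47.5% and those of ranks 1164, 1968 and 2170 had 27.7%, 27.7% and 13.9%. Weaker Pvf3 summits without it ran from 20.8% (rank 7720) to 55.4% (rank 10391), so the ranges with and without the word overlapped. The averages with and without the word were not compared.

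Of 14 preset words, searched on both strands in the same 101 bases, CANNTG, the E-box of basic helix-loop-helix factors, was the most common at the members, at 10 summits (31.2%, beside 34.1% of all IDR summits). GAGAG, the core of the GAGA factor word, was at 7 (21.9%, beside 9.03%): 5 of Pvf3 and 1 each of Pvf1 and Pvf2. The GATA words AGATAA and TGATAA, of the kind read by the hemocyte factor Serpent, were at 4 and 5 summits (12.5% and 15.6%, beside 8.11% and 9.61%). TATAAA was at 5 (15.6%, beside 24.1%), GTATTT at 5 (15.6%, beside 15.4%), AATATT at 5 (15.6%, beside 19.1%), ATATTA at 3 (9.38%, beside 22.2%) and the homeodomain word TAATTA at 2 (6.25%, beside 10.8%). TTCNNNGAA, the word of the factor Stat92E, and TGANTCA, the AP-1 word, were at 2 each (6.25%, beside 2.92% and 2.44%). GGTCACAC, CAGGTA and TATCGATA were at none of the 32 and at 0.892%, 1.82% and 0.93% of all IDR summits. With 32 summits, 1 summit more or less moves a share by 3.12 percentage points, and a match of such short words is a description of the letters alone.

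The wider pathway and the related genes are given next, by list. Of 20 other ligands of receptor tyrosine kinases, 13 (65%) had an IDR summit in the gene or within 5 kb, beside 52.6% of protein-coding genes, and the median rank of their strongest peaks was 1228, beside 2168. Wnt5, a ligand of the Derailed receptors, had rank 45 (44 in each replicate), ths, a fibroblast growth factor, 165, spi, the main ligand of the EGF receptor, 419, and vn, its neuregulin-like ligand, 708. Ephrin, grk and Ilp1 had none. Pvf3 was selected for one of the 20 strongest peaks, so its place above all 20 of the other ligands was set by that choice and is no finding. Pvf1 and Pvf2 ranked below the median of the other ligands with a peak.

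Among 18 other receptor tyrosine kinases, 13 (72.2%) had an IDR summit, with a median strongest rank of 2340. InR, the insulin receptor, held the strongest peak of the map (rank 1 in every list), followed by Nrk at 1087, dnt at 1400 and Cad96Ca at 1525. Alk, btl and Eph had no IDR summit, although btl, the receptor of the branching tracheal cells, had a peak in replicates 1 and 2 (ranks 6862 and 7750). Pvr, at rank 8995, was weaker than each of these 13.

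Among 34 genes of the machinery downstream of Pvr, 21 (61.8%) had an IDR summit, with a median strongest rank of 1142. The Rac-like GTPase gene Mtl had rank 135, the adaptor gene Shc 173, the kinase gene Raf 205 and Src64B, a kinase gene too, 452. No IDR summit was found at bsk, Cbl or Crk, of which Cbl had weak peaks in the replicates (ranks 19518, 13162 and 16468). Of 12 hemocyte genes, 9 (75%) had an IDR summit and the median strongest rank was 3693. The strongest was at ush, which encodes a partner of the GATA factor Serpent (rank 74; 93, 57 and 72 in the replicates), followed by the collagen gene vkg (704), SPARC (2679) and srp, the gene of Serpent itself (3452). The receptor gene crq, gcm and NimC1 had none, although gcm had peaks in replicates 1 and 3 (ranks 3871 and 3603). The median window of these lists was 13.6 to 25.6 kb, against 12.2 kb for all protein-coding genes, and longer windows hold more summits.

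**Figure D5:**
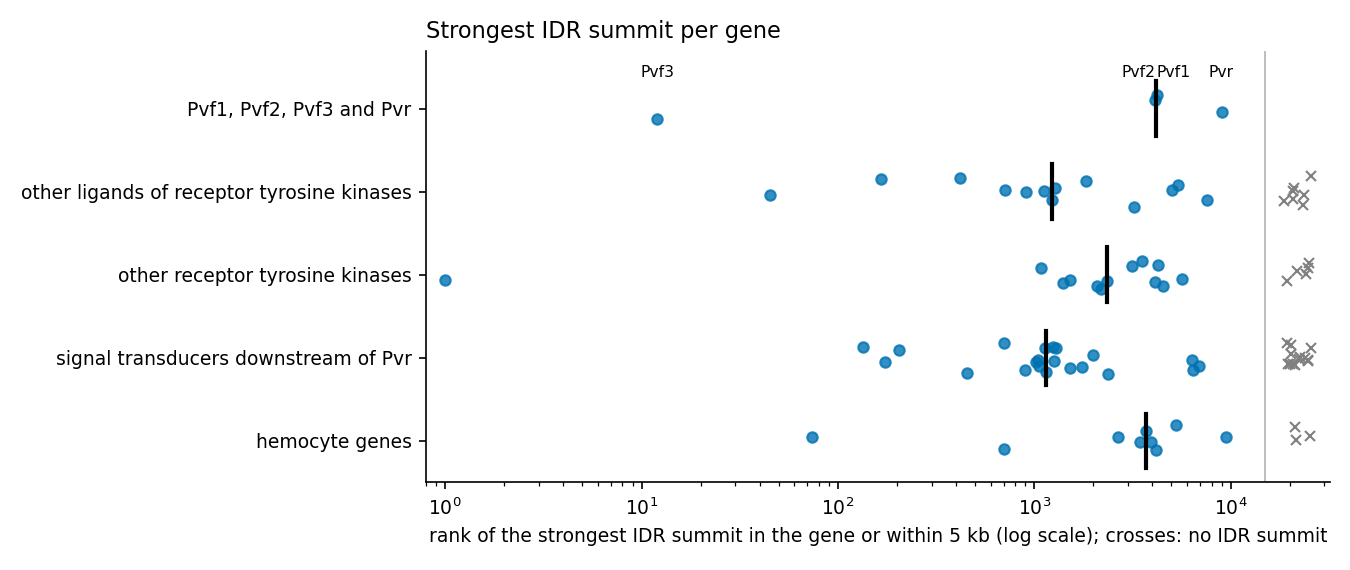
Rank of the strongest IDR summit in the gene or within 5 kb (log scale) for Pvf1, Pvf2, Pvf3 and Pvr and for each gene of the other lists (points, spread vertically for legibility), with the median of the genes that have a summit as a black bar and genes without one as crosses at the right. Pvf3 stands at 12 while Pvf2, Pvf1 and Pvr stand at 4144, 4215 and 8995, and the medians of the other lists lie between 1142 and 3693.

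The genes whose strongest peak had replicate ranks most like those of a member were found by the root mean square difference of log10 rank over the 3 replicates, among all protein-coding genes. For Pvf3 they were CG43341 and M7BP, which share 1 peak (ranks 11, 10 and 11, difference 0.0816), and Eip63E (17, 15 and 12, difference 0.0889). For Pvf2 they were Sec63 and Sh3beta, which share a peak, at 0.00697 and CG13082 at 0.0146. For Pvf1 they were CG5292, Smug and Det, on 1 shared peak, at 0.00767, and for Pvr CG43993 at 0.0256, Agpat1 at 0.026 and Sik2 at 0.0269. The ranks compared are those of the strongest peak in each replicate, which at Pvf1, Pvf2 and Pvr was not the same peak throughout. Likeness over 3 replicates says only that the strongest peaks of the genes were of similar strength in each replicate.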

How the data were processed

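Peak lists from 3 replicates were used as the authors deposited them, in dm6 coordinates: 1 per replicate, 1 pooled and 1 thresholded on the IDR. According to the deposited notes, 1 control alignment served every list and the IDR thresholding took the other lists as input, so the lists are not independent. Aligner, peak caller and versions: not given in the sources used here. Read depth is unknown. The deposited signal of a peak, on a scale not stated, gave the ranks. The deposited summit offset gave positions counted from 1. As 10023 of the 10650 IDR peaks shared 1 top value, 4.3, of the deposited −log10 q-value, and as the p-value column was unfilled, neither was used for ranks.

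Genes came from Ensembl release 115 (BDGP6.54, in dm6 coordinates) and bases from the NCBI genome of that assembly. Peaks were counted in each gene with 5 kb on each side, matched between lists when summits lay within 100 bp, and called promoter sites within 500 bp of a start site. Words were searched on both strands. Counts and matches were tested on simulated data. Python 3.11.15, numpy 2.4.6, pandas 2.3.3, scipy 1.17.1 and matplotlib 3.10.9 were used.

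The members, gene lists and words were chosen with earlier results of these data known. The word GCAACAT was picked after a number of spellings and a pair of window widths were compared by rank, so its shares are a description. Named genes followed a rule: all members, genes at or nearest to their summits, up to 4 genes per list with the strongest IDR peak and up to 3 without one in alphabetical order, and the 3 genes nearest in replicate rank to each member. Alternatives changed the window, the list, the ranking, the match, the replicates and the word window.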

Additional observations from a re-analysis of the deposited data

How the results depend on the processing

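Of 46 recomputed values of the main results, 14 moved, a count by over 1.5 times or a best rank by over 1 SD of its replicate ranks, and 32 did not. At Pvf1, Pvf2 and Pvr that SD mixes different peaks, so whether a best rank there is called moved depends on it. The 32 summits at the 4 genes became 14 with IDR peaks above the median signal, 101 with the whole pooled list, 20 with summits nearest to a start of the member itself, and 21 to 26 when each replicate was left out in turn and the strongest peaks of the others had to match. That requirement alone, with all 3 replicates kept, gave 21. These 21 became 32 with all peaks of the replicate lists. Ranked by width of the region, the best rank was 6233 at Pvf1, 7398 at Pvf2 and 39 at Pvf3, and over distinct regions it was 3933 at Pvf2. The median replicate rank, with each replicate left out in turn, ran from 4062 to 4578 at Pvf1, 3940 to 4120 at Pvf2, 11.5 to 13 at Pvf3 and 5830 to 8697 at Pvr. With summits within 500 bp of a start site only, 8 of 20 other ligands (40%), 3 of 18 other receptors (16.7%), 14 of 34 downstream genes (41.2%) and 2 of 12 hemocyte genes (16.7%) had one, beside 22.9% of protein-coding genes. The alternatives on lists and windows change how many peaks enter; the cause of the other moves was not tested. The word was at 3 member summits in windows of 101 bases and at 11 without its last letter. These changes of the word, and the count by nearest start, were chosen after the data were examined. Ranking by p-value could not be run, since that column is unfilled. No paired analysis was possible because there is only 1 group. Depth is unknown, no untagged library was analysed and none of the values was tested.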

Other observations

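Outside the IDR list, 26 further sites of the 4 genes, each a replicate 1 summit, had a peak within 100 bp in replicates 2 and 3. Of these, 17 were at Pvf3, 7 at Pvf2 and 1 each at Pvf1 and Pvr. They were weak. Of the 26, the Pvf3 site at 7120067, beside the peak of rank 957, had the best single ranks, 4668 in replicate 2 and 6350 in replicate 3, but 23519 in replicate 1. Stronger peaks outside the 26 stood beside the Pvf3 summit of rank 66 in replicates 1 and 2 only. Their summits were at 7157939 (rank 3694) in replicate 1 and 7157945 (rank 2145) in replicate 2. The Pvf2 site at 7079842 had ranks 14825, 10430 and 15481. The Pvr site at 8231353, in the first intron of most Pvr transcripts, had ranks 12016, 20842 and 11045. Replicate 2 also had a stronger peak beside it, at 8231247 (rank 13999), just over 100 bp from the replicate 1 summit. That peak was the nearer of the replicate 2 peaks to the replicate 3 summit at 8231268, so these ranks may not belong to 1 site. At Pvf2 these repeated weak sites outnumbered its 4 IDR summits. Such sites were counted at the 4 genes only, so this is not read as a trait of Pvf2.

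Base composition around the 3 Pvf3 summits with 3 copies of the word differed in shape from that of the other member summits. Up to 50 bp from the summit the 3 had 48.3% G and C, from 50 to 100 bp 53.3%, and from 150 to 200 bp 38.7%. The other 29 had 35.4%, 38.8% and 42.8% over the same distances. At 950 to 1000 bp the 3 had 49.3% and the other 29 had 38.3%. All IDR summits together had 33.3%, 36.9% and 42.7%. The 3 summits were picked by the word they hold, and the difference was not tested.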
